A study of Mus musculus with 12 samples.

Results

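The complement genes described here are the 3 chains of C1q (C1qa, C1qb and C1qc), C4b, C2, C3, Cfb, the inhibitor gene Serping1 and the receptor gene C3ar1. They are the rows of the deposited gene table that carry these 9 symbols, out of 15721 genes. The rule uses the symbols alone, but the symbols were listed with earlier results of these data known. Of the 9 genes, 8 reached 10 normalized reads in 3 or more libraries and were tested, and Serping1 did not. Polyadenylated RNA of FACS-isolated mouse peritoneal macrophages was sequenced with strand information in 12 libraries, 3 for each of 4 genotypes. The genotypes were WT and Samhd1 KO, with the double knockouts Samhd1 Cardif dKO and Samhd1 Sting dKO, all on the C57BL/6 strain, and all but WT are labelled as Samhd1-deficient. The labels give the age only as a number with no unit. It is 16 in the 3 WT libraries and 16 to 19 in Samhd1 KO. It runs from 16 to 18 for Samhd1 Cardif dKO, and up to 24 for Samhd1 Sting dKO. All mice were female except that of Samhd1 Cardif dKO replicate 1, so sex cannot be told apart from that library. The labels do not state whether each library is a single mouse or how the alleles were made, so the p-values measure only the spread between these samples.

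SAMHD1 hydrolyses deoxynucleotides. MAVS, which the labels call Cardif, carries signals of the cytosolic RNA sensors, and STING carries those of the DNA sensor cGAS. The study asked how these adaptors bear on the response of Samhd1-deficient cells, and here the question is put to complement. Complement is a cascade of plasma proteins in which C1q bound to a target starts the classical pathway, C4 and C2 form its C3 convertase, and factor B forms the convertase of the alternative pathway with C3. C1 inhibitor, the product of Serping1, blocks the first proteases, and C3a, released from C3, acts on cells through the receptor encoded by C3ar1. The liver makes most circulating complement, and tissue macrophages make C1q and other components locally.

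Recovered depth was 18884021 to 32204657 reads per library. Samhd1 averaged 10761 ± 713 normalized reads (SD, n = 3) in WT and 6520 ± 1167 in Samhd1 KO. Its mean was 3613 ± 678 for Samhd1 Cardif dKO and 3683 ± 763 for Samhd1 Sting dKO. Samhd1 reads were thus lower than in WT in the 3 deficient genotypes but not absent, and their level in Samhd1 KO was 0.601 times that in WT (limma adjusted p = 0.0305). They were lower again in Samhd1 Sting dKO than in Samhd1 KO (log2 -0.83, limma adjusted p = 0.0145), and Samhd1 Cardif dKO differed from Samhd1 KO by -0.85 (limma adjusted p = 0.0850). Mavs averaged 910.4 ± 64.1 in Samhd1 KO against 518 ± 8.05 in Samhd1 Cardif dKO, a fall in the limma test (adjusted p = 0.0172). Tmem173, the gene of STING, averaged 522 ± 36.0 in WT and 735 ± 36.6 in Samhd1 KO, a rise (limma adjusted p = 0.00873). It averaged 551 ± 22.4 in Samhd1 Sting dKO, lower than in Samhd1 KO (log2 -0.41, limma adjusted p = 0.0149) but with no call against WT (0.08, limma adjusted p = 0.622), so its reads do not check the Sting label. All 13 macrophage markers and all 13 markers of large peritoneal macrophages had reads in every group, Emr1 (F4/80) at 56006 to 89408 and Gata6 at 3134 to 4414 normalized reads. Of 7 T and NK cell markers in the table, 6 stayed under 10 normalized reads in every library, as did Krt8, Krt18, Krt19 and Dcn among 9 mesothelial and fibroblast markers. Together these 9 still summed to 1242 to 2517 normalized reads per library. Of 11 neutrophil markers listed, 3 had a row, and their sum was 8156 to 12730 normalized reads per library. The 14 B cell markers summed to 2432 to 3249 normalized reads in WT and 1719 to 2346 in Samhd1 KO. They reached 1884 to 2678 for Samhd1 Cardif dKO but 4079 to 6328 for Samhd1 Sting dKO. In such bulk samples, fewer cells of a type and less RNA per cell cannot be told apart.

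The promoters of C3 and C1qb are shown because C3 differed widely between libraries and C1qb hardly did. Both are the 250 bases before the RefSeq start in GRCm38.p6, read 5′ to 3′ on the minus strand. That of C3 is at chr17:57228137-57228386 and that of C1qb at chr4:136886201-136886450. Capitals mark a match to the C/EBP core.

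C3: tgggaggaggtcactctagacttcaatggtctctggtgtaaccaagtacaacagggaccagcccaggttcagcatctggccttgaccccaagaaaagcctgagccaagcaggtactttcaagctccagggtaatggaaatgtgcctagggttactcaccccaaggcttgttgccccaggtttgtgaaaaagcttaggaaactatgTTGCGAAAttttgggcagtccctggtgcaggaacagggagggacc

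C1qb: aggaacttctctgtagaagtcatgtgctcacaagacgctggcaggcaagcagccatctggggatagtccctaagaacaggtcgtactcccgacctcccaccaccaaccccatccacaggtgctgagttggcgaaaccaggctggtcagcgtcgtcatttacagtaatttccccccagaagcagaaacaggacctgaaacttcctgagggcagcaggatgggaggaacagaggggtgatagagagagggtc

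The match in C3 begins 45 bases before the start. The RefSeq table held promoters of 4 of the 9 genes, the others being C1qc and C3ar1. On both strands, these 4 windows were searched for the interferon-stimulated response element core (2 GAAA runs with 2 bases between them), the gamma-activated site (TTCNNNGAA), the NF-kB consensus and the C/EBP core (TTGCNNAA), the last chosen after the sequences were seen. Among 32851 mouse promoters of this length, 2.98%, 7.02%, 7.25% and 9.56% held these motifs in that order. C1qc held 1 match to the NF-kB consensus, 41 bases before its start, and no window held the letters of the interferon-stimulated response element core or the gamma-activated site.

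Complement transcripts were among the most abundant RNAs of these macrophages. The 8 genes other than C2 took 2.15% ± 0.200 of all reads in WT and 2.36% ± 0.143 in Samhd1 KO (SD, n = 3). Their share was 2.09% ± 0.222 for Samhd1 Cardif dKO and 2.08% ± 0.0816 for Samhd1 Sting dKO. C4b stood in place 4 of 15721 genes with a mean of 263449 normalized reads over the 12 libraries, and the C1q chains in places 27 to 31 with 61711 to 67212. Cfb averaged 21007, C3 17259 and C3ar1 7698 normalized reads, in places 114, 144 and 368. Per kilobase of deposited length, C1qb and C1qa moved ahead of C4b, to places 10 and 12 against 20. C1qc stood in place 34, Cfb 132, C3 296 and C3ar1 598 on that scale.

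**Figure D1:**
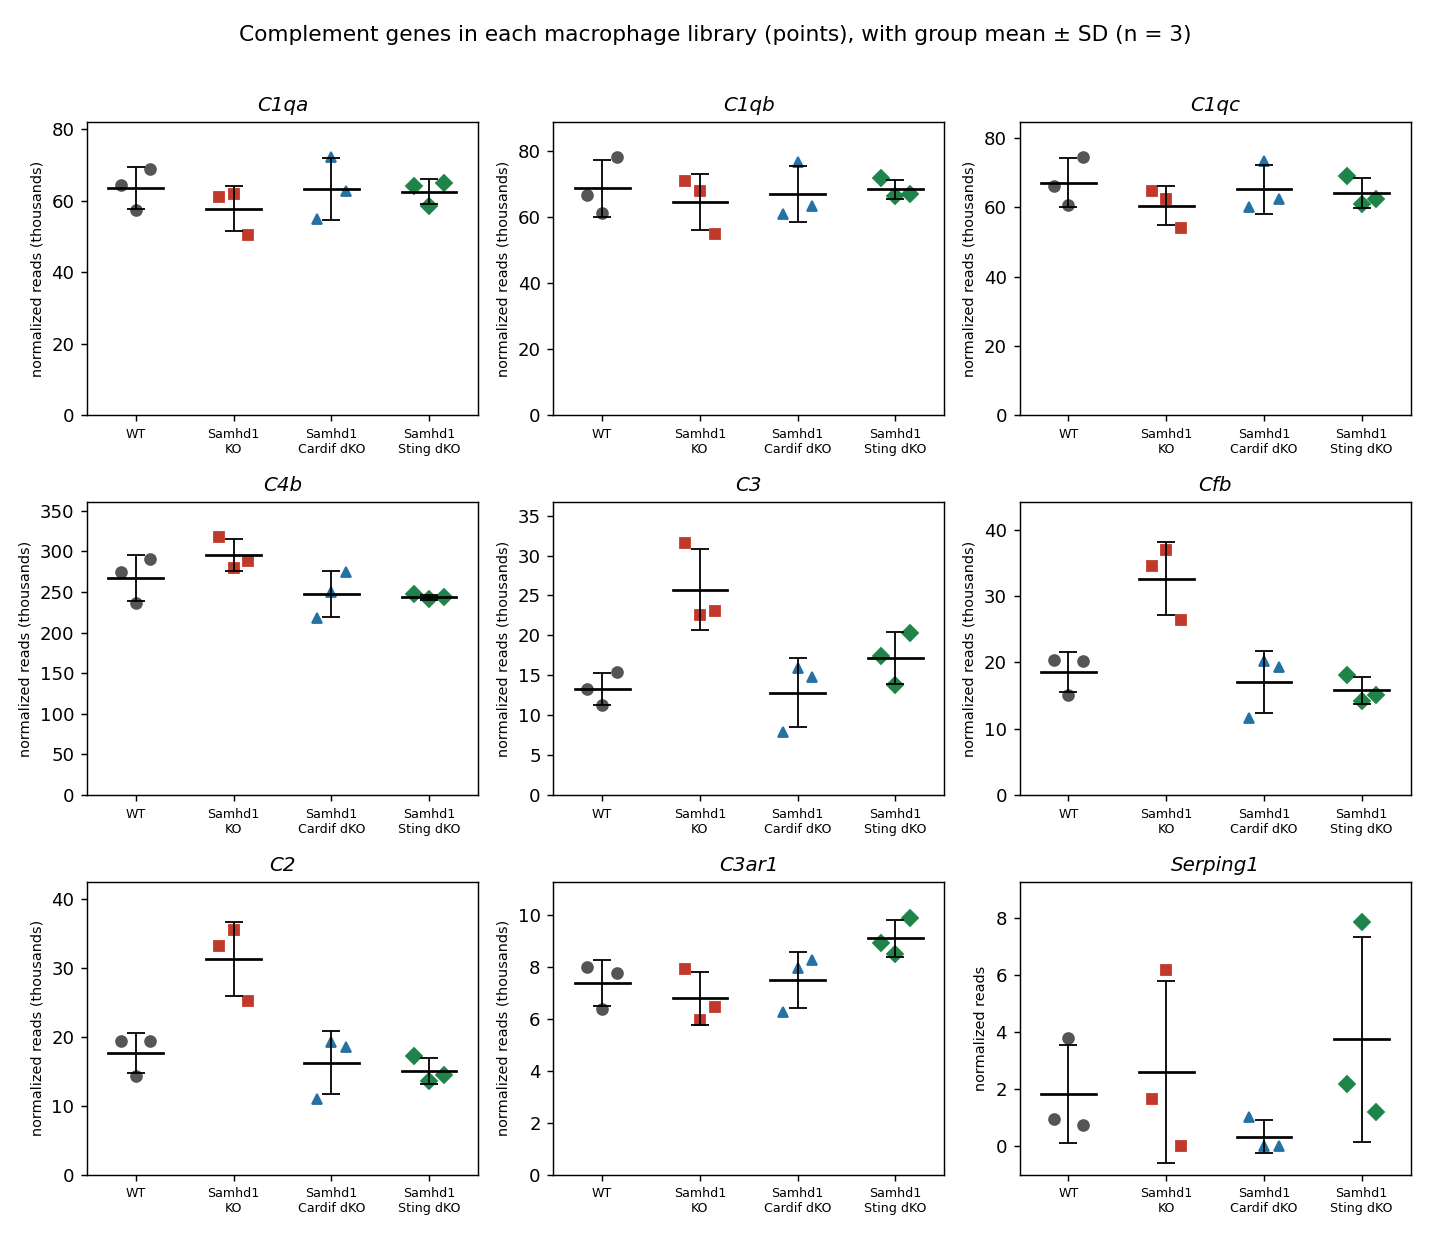
Normalized reads (y axes, scaled as labelled) of the 9 complement genes in each of 12 libraries (points), by genotype (x axis), with lines for the group mean and bars for the SD (n = 3). C3, Cfb and C2 in the 3 Samhd1 KO libraries lie above all 9 others, Samhd1 Cardif dKO replicate 1 is lowest for these 3 genes, and the C1q chains overlap between genotypes.

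The genes of C1q, which recognises antibody complexes and dying cells, differed little between genotypes. C1qa had 64416, 57235 and 68719 normalized reads in the WT libraries, and 61000.2, 61737 and 50434 in those of Samhd1 KO. The Samhd1 Cardif dKO libraries had 54804, 72091 and 62646, and the Samhd1 Sting dKO libraries 63988, 58559.5 and 64899. The 4 genotypes overlapped for C1qa, and they did so for C1qb (55035 to 78192) and C1qc (54062 to 74516) as well. None of the 3 passed the test in any of the 6 comparisons. For Samhd1 KO against WT the log2 difference was -0.14 for C1qa (95% interval -0.41 to 0.13), -0.09 for C1qb (-0.38 to 0.20) and -0.15 for C1qc (-0.41 to 0.11). The 3 genes neighbour each other on chromosome 4 (GRCm38 chr4:136880129-136898803, minus strand). Their levels followed each other from library to library, with Pearson r from 0.90 to 0.95 over 12 libraries that share depth and processing. Deviations from the group means correlated at 0.91 to 0.98 among them. Between them and the other tested members these deviations correlated at 0.48 to 0.89, so such likeness within genotypes was not particular to the C1q genes. The highest library exceeded the lowest by 1.38 to 1.43 times for these genes, against 4.01 times for C3 and 3.18 for Cfb.

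C4b, the C4 gene whose product carries the cascade from C1 to C3, was high in every library. The WT libraries had 274974, 236331 and 290700 normalized reads, and those of Samhd1 KO 317459, 279836 and 288596. Samhd1 Cardif dKO had 217765, 250456 and 274084, and Samhd1 Sting dKO 246961, 240894 and 243331. All 3 Samhd1 KO libraries lay above all 6 dKO libraries but overlapped with WT. No comparison passed the limma test: the log2 difference was 0.15 for Samhd1 KO against WT (95% interval -0.16 to 0.46), -0.26 for Samhd1 Cardif dKO against Samhd1 KO (-0.57 to 0.05) and -0.27 for Samhd1 Sting dKO against Samhd1 KO (-0.58 to 0.03). C4a is a near-identical copy of C4b and was listed at 0.0255% to 0.0497% of its value, so the reads of the pair may be split between them in a way that makes C4b uncertain.

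C2, the protease of the classical convertase, and Cfb, that of the alternative one, could not be told apart in these files. Their genes are neighbours on the minus strand of chromosome 17 (GRCm38: Cfb chr17:34856374-34862518, C2 chr17:34862604-34898265) and share 0 exonic bases. A read-through gene, Gm20547, shares 2246 exonic bases (79.5% of those of Cfb) with Cfb and 1656 (42.8%) with C2. The deposited C2 value was 0.951 to 0.961 of the Cfb value in all 12 libraries. The SD of this ratio was 0.301% of its mean, below the 0.698% to 1.35% that counting error alone gives for separate reads. The deposited length is 2825 bases for Cfb and 5680 for C2, for which GENCODE M21 has 2825 and 3872 exonic bases. The Cfb row thus has the length of the exons of Cfb alone, and the C2 row is longer than those of C2 alone. The C2 row may therefore take in reads of Cfb. Both rows are read as 1 signal, described under Cfb, and the part of C2 transcripts in it was not tested.

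**Figure D2:**
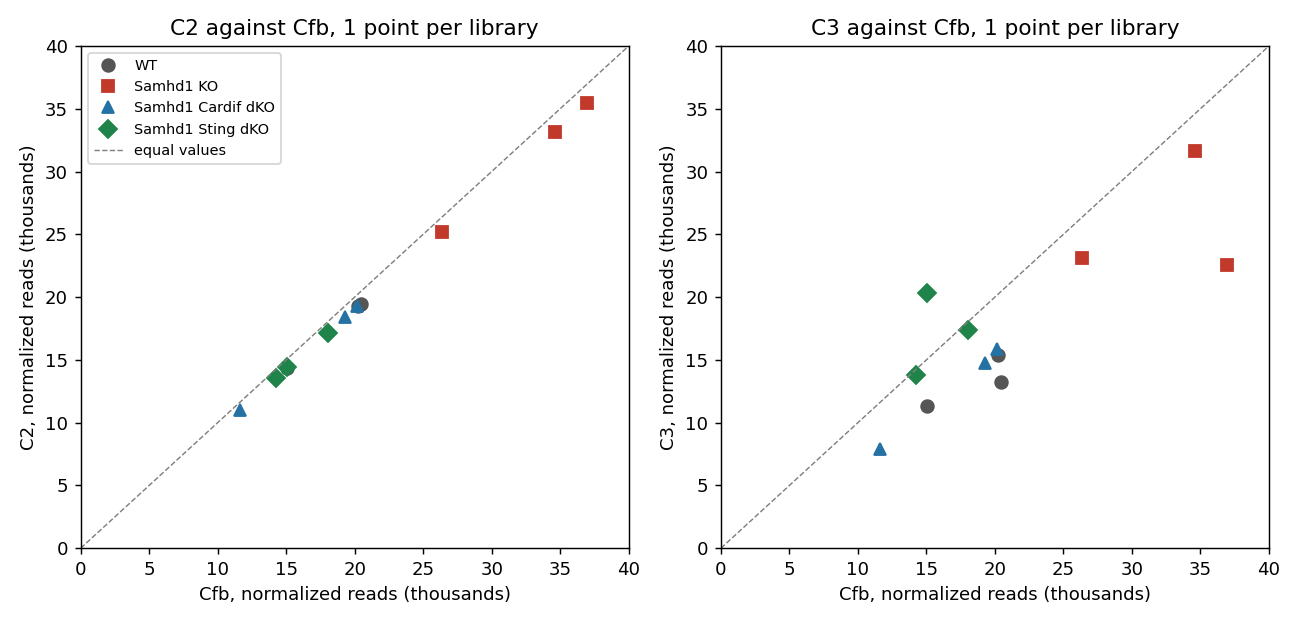
Normalized reads of C2 (left, y axis) and C3 (right, y axis) against those of Cfb (x axes), scaled as labelled, 1 point per library, with a dashed line of equal values. C2 lies on 1 line with Cfb at a ratio of 0.951 to 0.961, and the 3 Samhd1 Sting dKO libraries have the highest C3 for their Cfb, at ratios of 0.962 to 1.35.

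Cfb rose in Samhd1 KO against WT and was lower in Samhd1 Sting dKO. WT had 20432, 15066 and 20244 normalized reads of it, and Samhd1 KO 34591, 36923 and 26385. Samhd1 Cardif dKO had 11608, 20180.4 and 19309, and Samhd1 Sting dKO 18047, 14223 and 15069. Every Samhd1 KO library lay above every library of the other 3 genotypes. Against WT the rise was 1.76-fold (log2 0.81, SE 0.208, 95% interval 0.36 to 1.26, limma adjusted p = 0.0492), and 4.32% of all genes tested passed in that comparison. Of the 8 complement genes tested, 2 passed, both higher, where 2.71% of all genes were higher, and they are the 1 signal of Cfb and C2. The call stood at the threshold: edgeR gave an adjusted p of 0.0487 and DESeq2 of 0.00166, and the limma call ended without any 1 of the libraries other than Samhd1 Cardif dKO replicate 1 (adjusted p 0.0507 to 0.153, log2 0.67 to 0.96). TMM factors (adjusted p = 0.0552) and the labelled age as a covariate (0.0926) ended it too, and so did the inclusion of every gene with a read (0.0504).

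In Samhd1 Sting dKO, Cfb fell to 0.486 times its level in Samhd1 KO (log2 -1.04, SE 0.208, 95% interval -1.49 to -0.59, limma adjusted p = 0.0138). In that comparison 5.66% of all genes passed, 2.89% as lower, and again Cfb and C2 were the only members among 8 that did. The call ended without Samhd1 KO replicate 2 (log2 -0.94, adjusted p = 0.0540), and also without replicate 2 of Samhd1 Sting dKO (-0.97, 0.0537). In Samhd1 Cardif dKO against Samhd1 KO the log2 difference was -0.97 (SE 0.208, 95% interval -1.42 to -0.51) and did not pass the limma test (adjusted p = 0.109). The result there depended on the tool, since edgeR gave an adjusted p of 0.112 and DESeq2 of 0.000625. Without Samhd1 Cardif dKO replicate 1, the only male library and the lowest for Cfb, the difference was -0.71 (limma adjusted p = 0.252). Both double knockouts were compared with the same Samhd1 KO libraries, and the direct difference between them was -0.08 (Samhd1 Sting dKO minus Samhd1 Cardif dKO, 95% interval -0.53 to 0.38, limma adjusted p = 0.905).

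C3, the component on which all pathways converge, was likewise highest in Samhd1 KO. Its normalized reads were 13248, 11337 and 15356 in the WT libraries, and 31617, 22544 and 23081 in those of Samhd1 KO. They were 7884, 15857 and 14739 in those of Samhd1 Cardif dKO, and 17359, 13776 and 20306 in those of Samhd1 Sting dKO. The lowest Samhd1 KO library lay above the highest of the other 9. The difference from WT was the largest among the members, 1.92-fold (log2 0.94, SE 0.244, 95% interval 0.41 to 1.48), and missed the limma threshold (adjusted p = 0.0504). DESeq2 placed it past the threshold (adjusted p = 0.00131) and edgeR did not (0.0502), while limma did so without Samhd1 Cardif dKO replicate 1 (0.0106) or replicate 2 (0.0492), with only the 2 genotypes compared (0.0222) and at a filter of 50 normalized reads (0.0474).

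Against Samhd1 KO, C3 differed by -1.05 in Samhd1 Cardif dKO (log2, 95% interval -1.59 to -0.52, limma adjusted p = 0.130) and by -0.59 in Samhd1 Sting dKO (-1.12 to -0.05, limma adjusted p = 0.182). DESeq2 gave adjusted p-values of 0.00217 and 0.0871 for these 2 differences, and edgeR gave 0.146 and 0.180. Without Samhd1 Cardif dKO replicate 1, whose 7884 reads were the lowest of all, the first became -0.73 (limma adjusted p = 0.269). The direct difference between the double knockouts was 0.47 (95% interval -0.07 to 1.00, limma adjusted p = 0.387), and the authors' deposited table gives a fold of 1.34 and an adjusted p of 0.751 for it.

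Set against Cfb, C3 was relatively high in Samhd1 Sting dKO. The C3 to Cfb ratio was 0.720 ± 0.0619 in WT and 0.800 ± 0.165 in Samhd1 KO (SD, n = 3). Samhd1 Cardif dKO had a ratio of 0.743 ± 0.0562, and Samhd1 Sting dKO one of 1.09 ± 0.221. All 3 Samhd1 Sting dKO libraries, from 0.962 to 1.35, lay above the other 9. The exact two-sided permutation test gave p = 0.1 against each other group, the smallest p that 3 libraries against 3 allow. The ratio was chosen after these values were seen, and groups that do not overlap fix this p, so the test adds no support.

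The counts of members called can be set against the whole table. Cfb and C2 are counted separately here, though their rows are read as the same signal. Every count below that holds both, and each median over the 8 members, therefore takes that signal more than once. For Samhd1 Cardif dKO against Samhd1 KO, 0 of 8 members passed in limma or edgeR, where 0.144% of all genes passed in limma. DESeq2 called 3 of the 8, and 1.44% of all genes. An unadjusted p under 0.05 was found for 3 members, and for 8.98% of all genes. C3, Cfb, C2 and C4b did not overlap between these groups, all lower in Samhd1 Cardif dKO, as was the case for 7.34% of all genes. The same 4 genes did not overlap between Samhd1 Sting dKO and Samhd1 KO, all lower in the former, against 12.9% of all genes. Samhd1 KO exceeded WT without overlap for C3, Cfb and C2, against 13.8% of all genes. The median log2 difference of the 8 members was 0.03, -0.10 and -0.09 in the comparisons of Samhd1 KO with WT, Samhd1 Cardif dKO with Samhd1 KO and Samhd1 Sting dKO with Samhd1 KO, and that of all genes was 0.00 in each.

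**Figure D3:**
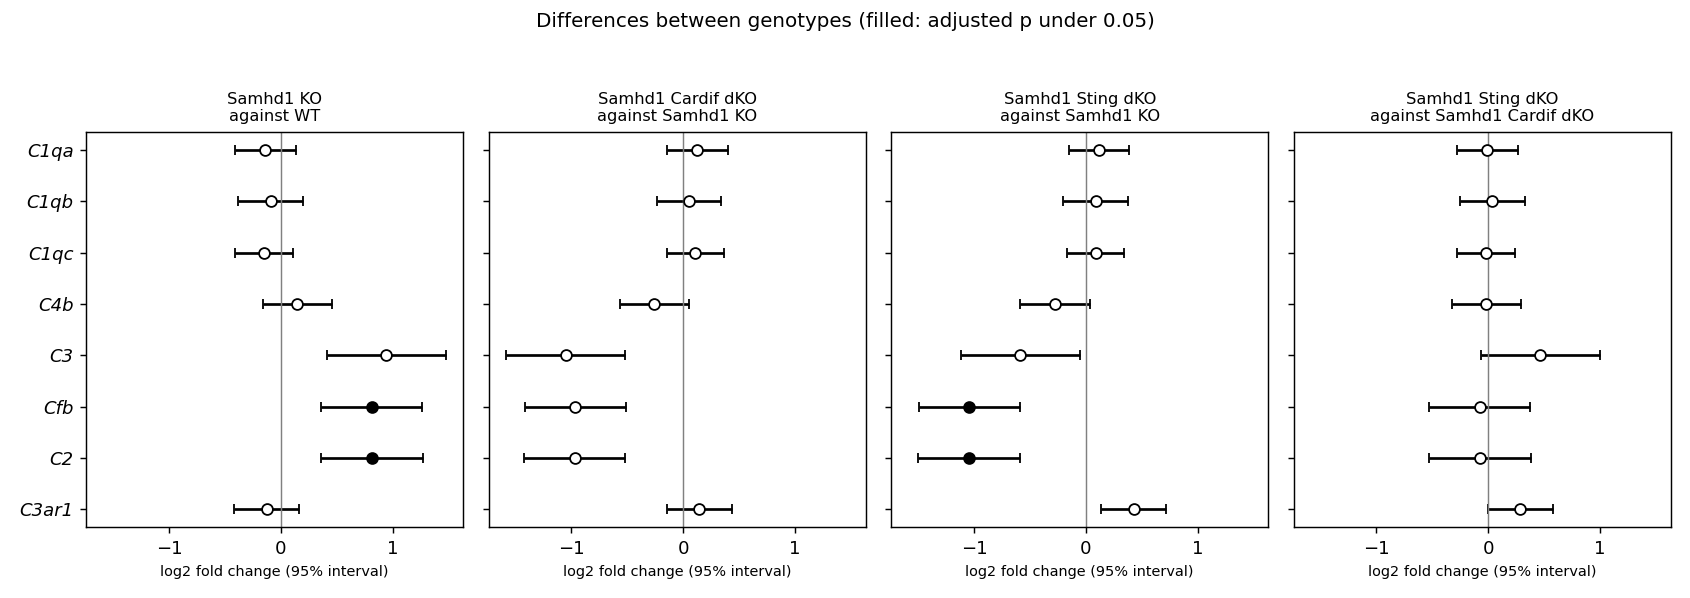
Log2 fold change (x axes) with its 95% interval for the 8 tested complement genes in 4 comparisons (panels), filled where the limma adjusted p was under 0.05. Cfb and C2 are filled for Samhd1 KO against WT and Samhd1 Sting dKO against Samhd1 KO, C3 lies beside them unfilled at 0.94 and -0.59, and the intervals of the C1q chains and C4b all include 0.

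The summed level of the interferon reference genes was also highest in Samhd1 KO. The interferon list and the marker lists below were chosen with earlier results of these data known. The 24 interferon genes summed to 15113 to 24955 normalized reads in WT and 41340.1 to 49520.4 in Samhd1 KO. Their sum was 16536 to 25280.4 for Samhd1 Cardif dKO, and 12534 to 14802 for Samhd1 Sting dKO. Of them, 20 rose in Samhd1 KO against WT (median log2 1.18 over the 24), where 2.71% of all genes were higher. Compared with Samhd1 KO, 23 fell in Samhd1 Sting dKO (median -1.75), where 2.89% of all genes were lower. In Samhd1 Cardif dKO 3 passed as lower, in a comparison where 19 of 13231 genes passed at all. Of the 24, 0 lay above 0, 23 had an unadjusted p under 0.05 (8.98% of all genes) and the median was -1.04. Between the double knockouts, where Cfb differed by -0.08, 4 of the 24 were lower in Samhd1 Sting dKO, 20 had an unadjusted p under 0.05 and the median was -0.77. Among all genes, 0.28% passed there in either direction and 15.7% had an unadjusted p under 0.05. Samhd1 Sting dKO also had 4 of the 24 lower than in WT (median -0.58), where 6.5% of all genes passed in either direction. The 13 macrophage markers summed to 1122140 to 1292570 in WT and 795019 to 1020010 in Samhd1 KO. Their sum was 738114 to 1171000 for Samhd1 Cardif dKO, and 1097780 to 1160280 for Samhd1 Sting dKO. Of the 13, 0 passed the limma threshold for Samhd1 KO against WT (4.32% of all genes). An unadjusted p under 0.05 was found for 1 (18.8% of all genes), and edgeR called 0 and DESeq2 1. Samhd1 Sting dKO had 1 of the 13 lower than Samhd1 KO (2.89% of all genes). The 10 markers of small peritoneal macrophages and dendritic cells summed to 4730 to 7572 in WT and 7333 to 10513 in Samhd1 KO, with 1 of 7 tested higher and 1 lower. Their sum was 7512 to 13065 for Samhd1 Cardif dKO and 7064 to 13550 for Samhd1 Sting dKO, within or above the range of Samhd1 KO in all but 1 library. Of 8 tested markers of mast cells, eosinophils and basophils, 3 fell in Samhd1 KO against WT and 4 rose in Samhd1 Sting dKO compared with Samhd1 KO, where 11 of 14 B cell markers rose as well. In these 2 comparisons 4.32% and 5.66% of all genes passed in either direction. The part of these shifts in the levels of Cfb, C3, C3ar1, C1ra and C5ar1 was not tested.

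Over the 12 libraries, the genes most alike to Cfb were Stat2 (Pearson r = 0.95), B2m (0.94) and Ifih1 (0.94), which encode an interferon signalling factor, the light chain of MHC class I and the RNA sensor MDA5. C2 had Stat2, B2m and Tgtp2. Those most alike to C3 were Ralgapb (0.93), Esrra (0.91) and Camk2d (0.90), and to C4b Otud5 (0.91), Mier3 (0.91) and Trim30d (0.90). The C1q chains had lower values, with Mrpl36 (0.86) for C1qa, Bccip (0.82) for C1qb and Ap2a2 (0.84) for C1qc. These are descriptions over libraries that share genotype and processing, and the genes named rank highest among all genes compared.

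C3ar1, the receptor of C3a, had its highest levels in Samhd1 Sting dKO. WT had 8010.3, 6381 and 7779.8 normalized reads of it, and Samhd1 KO 7923, 5975 and 6483. The Samhd1 Cardif dKO libraries had 6267, 7962 and 8275, and the Samhd1 Sting dKO libraries 8926, 8513 and 9882. The 3 Samhd1 Sting dKO libraries lay above all 9 others, and those 9 overlapped. Among all genes, 14.6% lay above WT and 9.16% above Samhd1 Cardif dKO without overlap. Samhd1 Sting dKO differed from Samhd1 KO by 0.43 (log2, 95% interval 0.14 to 0.72, limma adjusted p = 0.0811), without overlap as for 11.9% of all genes. DESeq2 gave an adjusted p of 0.0301 and edgeR of 0.0859, and limma gave 0.0456 without Samhd1 KO replicate 1 (log2 0.55). Leaving out any other library did not bring it past the threshold (limma adjusted p up to 0.228), and other limma settings gave up to 0.132. The difference from WT was 0.31 (95% interval 0.02 to 0.60, limma adjusted p = 0.196), in a comparison where 6.5% of all genes and 0 of 8 members passed, with 1 unadjusted p under 0.05 (22.4% of all genes) and 0 calls by edgeR or DESeq2. Against Samhd1 Cardif dKO it was 0.29 (-0.0019 to 0.58, limma adjusted p = 0.321), where 0.28% of all genes and 0 of 8 members passed, with 0 unadjusted p-values under 0.05 (15.7% of all genes) and 0 calls by edgeR or DESeq2. The authors' deposited table gives a fold of 1.21 and an adjusted p of 0.538 for the same pair. The genes most alike to C3ar1 were Rin2 (0.95), Trim44 (0.94) and F13a1 (0.93).

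Serping1 was near absent, with 0 to 7 recovered reads per library in a depth of at least 18884021. WT had 1, 4 and 1 reads, Samhd1 KO 2, 6 and 0, Samhd1 Cardif dKO 1, 0 and 0, and Samhd1 Sting dKO 2, 7 and 1. A count of 0 allows up to 3 reads, for counting error only, so no fold is given for this gene.

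Samhd1 Cardif dKO did not differ from WT past the threshold for any of the 8 members (0 calls by limma, edgeR or DESeq2, 0 unadjusted p-values under 0.05 against 14.5% of all genes), where 1.06% of all genes passed in limma. Cfb differed by -0.15 (log2, 95% interval -0.61 to 0.30) and C3 by -0.11 (-0.64 to 0.42). Without Samhd1 Cardif dKO replicate 1 these became 0.10 and 0.21. Samhd1 Sting dKO differed from WT by -0.23 for Cfb (-0.68 to 0.22) and 0.36 for C3 (-0.17 to 0.89).

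Of 49 other complement genes listed, 26 had a row and 20 were tested, and the rest, such as Cfd, Hc and Cfi, were not analysed here. Properdin (Cfp), which stabilises the alternative convertase, had 71268 to 115843 normalized reads, and the chains of complement receptor 3, Itgam and Itgb2, had 103654 to 171785 and 58529 to 94068. Ficolin A (Fcna), a lectin pathway recognition molecule, had 28164 to 49594. None of these 4 passed in a comparison.

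C1ra encodes a protease of the first complement component. The WT libraries had 778, 789.5 and 805 normalized reads of it, and those of Samhd1 KO 1225, 946 and 1197. Those of Samhd1 Cardif dKO had 974, 708 and 715, and those of Samhd1 Sting dKO 626, 481 and 743. Samhd1 Sting dKO lay below Samhd1 KO in all 3 libraries, as did 12.9% of all genes. The fall was log2 -0.88 (SE 0.164, limma adjusted p = 0.00947) and held with each library left out in turn (adjusted p 0.00526 to 0.0398). Against WT, Samhd1 KO differed by 0.49 (limma adjusted p = 0.116), again without overlap, as did 13.8% of all genes in that direction.

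Samhd1 Sting dKO differed from Samhd1 KO in 3 of the 20 other complement genes, beside 5.66% of all genes. Besides C1ra, Cfhr2 fell by 0.71 on the log2 scale (limma adjusted p = 0.0309), from 65.1 to 84.1 normalized reads in Samhd1 KO to 42.9 to 45.1. C5ar1, the receptor of the anaphylatoxin C5a, rose by 0.65 (limma adjusted p = 0.0285), from 3480.3 to 4787.5 to 5921 to 7892. C5ar1 was also higher than in WT (log2 0.64, limma adjusted p = 0.0289), where it had 4227 to 4402 normalized reads. The call of Cfhr2 ended without Samhd1 KO replicate 1 or 2 or any 1 of the Samhd1 Sting dKO libraries (adjusted p up to 0.0877), with only the 2 genotypes compared (0.0861) and with the labelled age as a covariate (0.0509). That of C5ar1 against Samhd1 KO ended without Samhd1 KO replicate 3 and without replicate 2 or 3 of Samhd1 Sting dKO (up to 0.0987), with the 2 genotypes alone (0.0584) and with the labelled age (0.0535), and that against WT without any 1 WT library or Samhd1 Sting dKO replicate 2 or 3 (up to 0.0928) and with the labelled age (0.0892).

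Cr2, complement receptor 2 of B cells and follicular dendritic cells, was called higher in Samhd1 Sting dKO than in WT (log2 2.40, SE 0.648, limma adjusted p = 0.0480). Its normalized reads were 0.955 to 6.63 in WT and 9.54 to 40.5 in Samhd1 Sting dKO. Only Samhd1 Sting dKO replicates 1 and 2 (26.4 and 40.5) and Samhd1 Cardif dKO replicate 2 (10.03) reached 10 normalized reads. Cr2 thus entered the test mainly through the group where it is high, which the call does not allow for. Cr2 is also 1 of the 14 B cell markers. Of these, 6 rose in this comparison and 11 rose against Samhd1 KO, where 5.66% of all genes passed. The part of B cell RNA in the Cr2 difference was not tested. The call ended without any 1 of the 9 WT, Samhd1 KO and Samhd1 Sting dKO libraries except Samhd1 Sting dKO replicate 3, and without Samhd1 Cardif dKO replicate 2 or 3 (adjusted p up to 0.157). Cr2 and C5ar1 were the 2 of 20 other complement genes that passed for Samhd1 Sting dKO against WT, beside 6.5% of all genes. Cd55, whose product speeds the decay of C3 convertases, fell in Samhd1 Cardif dKO against WT, from 291 to 449.8 to 96.3 to 183 normalized reads (log2 -1.29, SE 0.263, limma adjusted p = 0.0424). Samhd1 Cardif dKO replicate 1 was lowest, and without it the difference was -0.998 (adjusted p = 0.110). The call also ended without any 1 WT, Samhd1 KO or other Samhd1 Cardif dKO library (adjusted p up to 0.154). Cd55 was the only 1 of the 20 that passed for Samhd1 Cardif dKO against WT, beside 1.06% of all genes.

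In the comparison of Samhd1 KO with WT, 0 of the 20 passed in limma or edgeR, 5 had an unadjusted p under 0.05 and 2 passed in DESeq2, beside 18.8% and 8.19% of all genes. The macrophage receptor gene Vsig4, chosen after its values were seen, had 11710.2 to 14823 normalized reads in WT and 6495 to 11395 in Samhd1 KO (log2 -0.72, limma adjusted p = 0.0590). For Samhd1 Cardif dKO against Samhd1 KO, 0 of 20 passed in limma and 3 had an unadjusted p under 0.05 (8.98% of all genes). Between the double knockouts 0 of 20 passed in limma, 2 in DESeq2 (3.8% of all genes), and 6 had an unadjusted p under 0.05 (15.7%). The median log2 difference of the 20 genes was 0.00 for Samhd1 KO against WT and 0.01 for Samhd1 Sting dKO against Samhd1 KO, beside 0.00 for all genes in both.

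**Figure D4:**
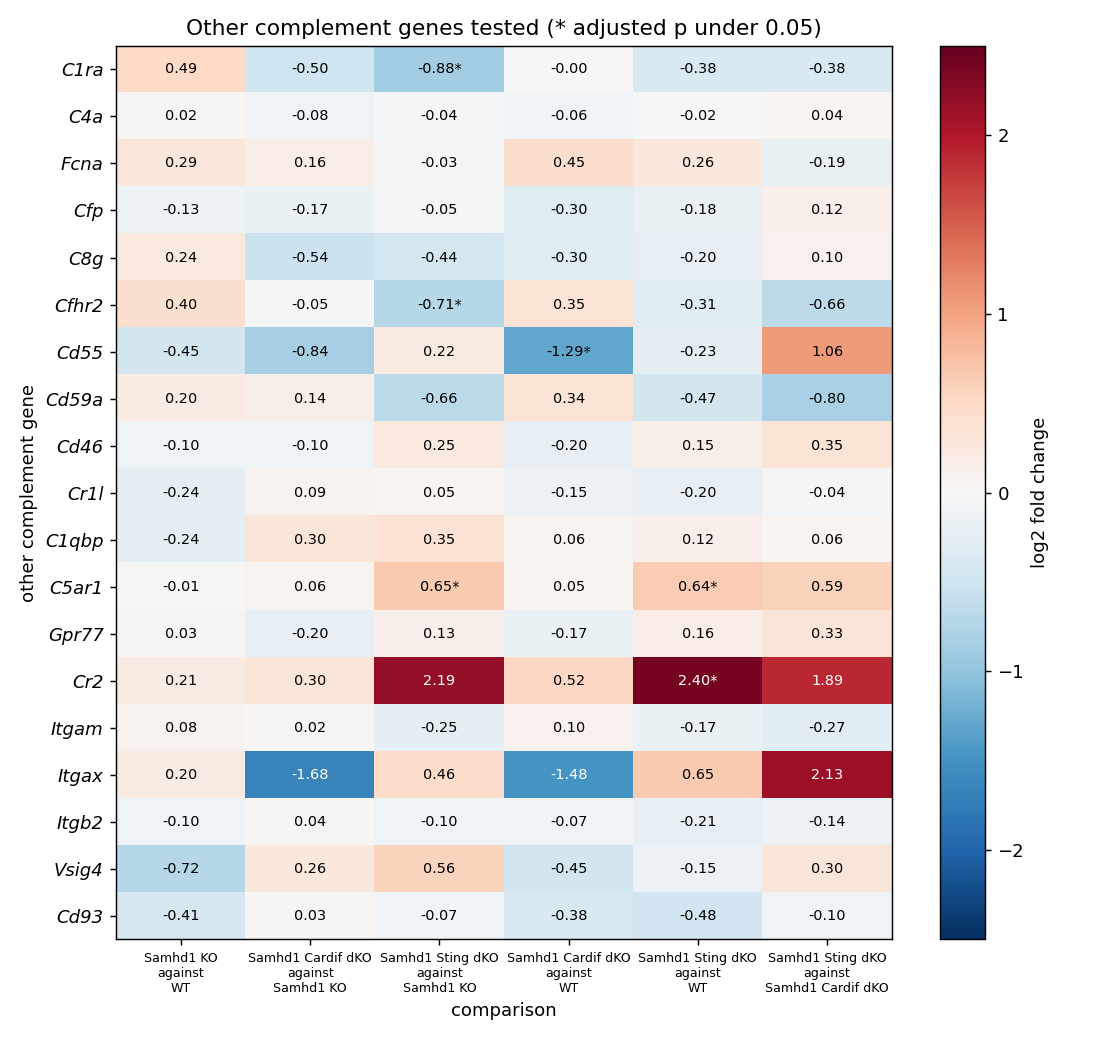
Log2 fold change of 19 of the 20 other complement genes tested (rows) in 6 comparisons (columns), on a colour scale from blue (lower) to red (higher), with a star where the limma adjusted p was under 0.05. Stars mark C1ra, Cfhr2 and C5ar1 for Samhd1 Sting dKO against Samhd1 KO, C5ar1 and Cr2 for Samhd1 Sting dKO against WT, and Cd55 for Samhd1 Cardif dKO against WT.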

How the data were processed

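Each deposited signal value is a gene's read number, scaled by the authors with 1 size factor per library. Genes came from Ensembl 61 on mm9 per the file headers, with bedtools 2.16.2 and DESeq 1.6.1 among the tools in the submitters' processing notes. No source used here gives the aligner. All values (100% at a tolerance of 1e-04) were whole multiples of 1 read, so reads were recovered. The authors' deposited fold, log2 and p-value columns compare Samhd1 Sting dKO with Samhd1 Cardif dKO and are named where used.

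Raw counts with edgeR had been planned, and the deposited unit called instead for limma 3.58.1 (R 4.3.3). It was run on log2(normalized reads + 1), which understates changes of low genes, for 13231 genes that reached 10 normalized reads in 3 or more libraries. It took 1 mean per group over 12 libraries, 6 comparisons and Benjamini-Hochberg adjustment, with a threshold of 0.05. Alternatives used edgeR 4.0.16, DESeq2 1.42.0, TMM factors, other pseudocounts and filters, and libraries left out. The code was tested on simulated data.

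All 9 complement genes are named, with up to 4 called genes per comparison of the other complement list and the 3 most alike genes per member with at least 50 normalized reads. Members and lists were chosen with earlier results of these data known. GRCm38 coordinates are from GENCODE M21 and were not converted. The values of 1 other complement gene are not reported here.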

Additional observations from a re-analysis of the deposited data

How the results depend on the processing

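With 3 libraries per group, the Cfb and C2 calls for Samhd1 KO against WT lie close to the threshold of 0.05. No alternative turned the direction of a called complement gene, and depth did not limit any member but Serping1. Of 539 alternative values of the named genes with no library left out, 513 were counted as unchanged, 19 lost the call and 7 gained it. Unchanged means the same call, with the direction kept or, for a difference not called, a shift under 1 SE. C1qb between the double knockouts, for example, ran from -0.02 to 0.04. The cause of the changes below was not tested.

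For the members, Cfb and C2 are again counted separately. The count called for Samhd1 KO against WT (2) was 1 with every gene with a read, 0 with TMM factors and 0 with the labelled age. It was 0 to 3 with 1 library left out. DESeq2 called 3 for Samhd1 Cardif dKO against Samhd1 KO in place of 0. Leaving out 1 library gave 0 to 3 for Samhd1 Sting dKO against Samhd1 KO in place of 2.

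For the other complement genes, Samhd1 KO against WT (0) had 2 calls with DESeq2, 1 with the 2 genotypes alone, 1 with the labelled age and 0 to 2 with 1 library left out. Samhd1 Sting dKO against Samhd1 KO (3) had 1 with the 2 genotypes alone, 1 with the labelled age and 1 to 3 with 1 library left out. Samhd1 Cardif dKO against WT (1) had 0 with the 2 genotypes alone and 0 to 1 with 1 library left out. Samhd1 Sting dKO against WT (2) had 1 at a pseudocount of 0.5, 1 at a filter of 50 normalized reads, 1 with the 2 genotypes alone, 0 with the labelled age and 0 to 2 with 1 library left out. DESeq2 called 2 between the double knockouts in place of 0.

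Over all genes, DESeq2 called 1084 for Samhd1 KO against WT in place of 572 (185 to 610 with 1 library left out). It called 190 for Samhd1 Cardif dKO against Samhd1 KO in place of 19, with 1 for the 2 genotypes alone, 6 with the labelled age and 0 to 31 with 1 library left out. It called 1306 for Samhd1 Sting dKO against Samhd1 KO in place of 749, with 461 for the 2 genotypes alone and 421 to 864 with 1 library left out. For Samhd1 Cardif dKO against WT these were 485 in place of 140, 67 and 37 to 160. Samhd1 Sting dKO against WT had 1408 in place of 860, 423 with the labelled age and 358 to 904 with 1 library left out. Between the double knockouts DESeq2 called 503 in place of 37, with 7 for the 2 genotypes alone, 4 with the labelled age and 1 to 44 with 1 library left out.

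Deviations from the group means of libraries with the same replicate number in different groups correlated at r from -0.43 to 0.37 (median 0.03, 7 of 18 pairs over 0.1). Those of libraries with different numbers correlated at -0.47 to 0.54 (median 0.01, 15 of 36 over 0.1). With 3 libraries per group, centred on their mean, these values cannot show whether the samples were paired. With the replicate number as a block, 0 members were called for Samhd1 KO against WT (Cfb adjusted p = 0.0842). For Samhd1 Sting dKO against Samhd1 KO it ended the call of Cfhr2 (adjusted p = 0.0541). The block gave 0 other complement genes for Samhd1 Cardif dKO against WT and 1 for Samhd1 Sting dKO against WT. Over all genes it gave 2 for Samhd1 Cardif dKO against Samhd1 KO and 23 between the double knockouts.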

Other observations

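The authors' deposited table gives Serping1 a fold of 11 between Samhd1 Sting dKO and Samhd1 Cardif dKO with an adjusted p of 0.758. The recovered reads behind it were 2, 7 and 1 in Samhd1 Sting dKO and 1, 0 and 0 in Samhd1 Cardif dKO.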
